A study of Homo sapiens with 10 samples.

Results

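Messenger RNA levels of 50 translation initiation and elongation factors were examined in QGP-1, a human cell line long in culture that was derived from a pancreatic neuroendocrine tumor. The factors were taken by name from a list that covers 11 roles: scanning factors, eIF2, eIF2B, the eIF3 subunits, the eIF4 helicases, the cap-binding proteins and scaffolds, the eIF4E-binding proteins (4E-BPs), subunit joining, eIF5A, eEF1, and eEF2 with its kinase. All 50 were among the 35606 genes listed in each of the 2 expression tables, and all 50 reached a mean of 1 CPM, as did 13591 genes of the knockdown table and 13520 of the drug table.

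The RNA-seq data held 10 samples in 5 groups of 2. In the knockdown table, cells in a stable CRISPR interference (CRISPRi) line carried sgPIKFYVE-1, a single guide against PIKFYVE, and were compared with cells that carried the control guide sgNC. In CRISPRi, a guide brings a Cas9 without nuclease activity, fused to the KRAB repressor, to the start of a gene. In the drug table, wild-type cells given 1 µM apilimod, a PIKfyve inhibitor, or 100 nM Torin-1, an inhibitor of the mTOR kinase, were compared with cells given the solvent DMSO. The labels give 24 h for both drugs, whereas the figure legends of the study give a shorter time. Only 1 guide was used, so an effect of the guide itself cannot be told apart from the knockdown. No source states that the 2 samples of a group were separate cultures, so p-values measure only the spread between these samples, which may be technical.

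The ribosome starts translation through a fixed order of factors. eIF2 brings the initiator tRNA, and eIF2B recharges eIF2 with GTP. eIF4E binds the cap and, with the scaffold eIF4G and the helicase eIF4A, recruits the small subunit through eIF3. The 4E-BPs hold eIF4E away from eIF4G until mTORC1, the mTOR complex that senses nutrients at the lysosome, phosphorylates them. eEF1 and eEF2 then carry out each step of elongation. Many elongation factor mRNAs start with a terminal oligopyrimidine (TOP) tract, a C followed by a run of C or T, through which mTORC1 controls how much of them is translated. PIKfyve makes the lipid PI(3,5)P2 on endosomes and lysosomes. The values here are RNA levels and hold no information on protein, phosphorylation or translation rate.

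The first bases of the transcripts are shown because the direction of change under Torin-1 and with sgPIKFYVE-1 differed among factors with and without a TOP-like start. RefSeq start sites on GRCh38.p14 were found for 40 of the 50 factors. Each window holds 10 bases before an annotated start and the first 20 transcribed bases, 5′ to 3′ on the strand of the gene, and capitals mark an initial C followed by at least 4 bases that are C or T. This definition was set after the fold changes were known.
EEF2, chr19:3985444-3985473, minus strand: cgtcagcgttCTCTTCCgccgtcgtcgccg
EEF1A1, chr6:73521013-73521042, minus strand: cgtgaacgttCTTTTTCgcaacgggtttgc
EIF4B, chr12:53006446-53006475, plus strand: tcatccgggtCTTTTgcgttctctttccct
EIF4A2, chr3:186783567-186783596, plus strand: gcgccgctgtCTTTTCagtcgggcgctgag
EIF2S3, chrX:24054946-24054975, plus strand: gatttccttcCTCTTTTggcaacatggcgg
EIF3D, chr22:36529147-36529176, minus strand: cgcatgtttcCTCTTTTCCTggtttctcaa
EIF3F, chr11:7987327-7987356, plus strand: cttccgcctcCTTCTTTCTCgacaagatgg

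Factors whose annotated starts lack the run include the following, printed in lower case throughout.
EIF2S1, chr14:67360318-67360347, plus strand: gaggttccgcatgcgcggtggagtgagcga
EEF1E1, chr6:8102529-8102558, minus strand: tgcaggtctcgcgtctgccaggagctacgg
EIF1, chr17:41688875-41688904, plus strand: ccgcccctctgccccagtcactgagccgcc
EIF3B, chr7:2354817-2354846, plus strand: tcgcacgcacatggctgggctgtagccgtc

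The run was found at a start of 10 of the 40 factors: the 7 above and EIF3K, EIF3M and EEF1B2. The 7 printed are those that rose under Torin-1 at the threshold given below. EIF3K, EIF3M and EEF1B2, whose windows are not printed, did not pass it, so the printed windows do not represent all 10. Over all genes, 1429 of 35116 starts hold it, or 4.07%, which is a share of starts and not of genes. Of the genes tested under Torin-1, 752 had the run at a listed start and 9451 had a listed start without it. A match describes letters at an annotated start, and its absence says only that these letters are not in that window.

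The deposited values are a normalized signal on the CPM scale, made by the authors with TMM scaling of each table separately, so tests stay within a table. CPM is a share of each library, and fewer cells or less RNA per cell cannot be told apart from it. The samples held an estimated 9.1 to 13.2 M reads, at which 3 reads correspond to 0.227 to 0.33 CPM. This limit is for counting error alone. PIKFYVE, the targeted gene, was at 11.7 CPM with sgPIKFYVE-1 and at 99.1 CPM with sgNC, a log2 fold change of -2.98 (limma adjusted p = 1.22e-14). The neuroendocrine markers CHGA, CHGB, SYP, ENO2 and INSM1 and the epithelial markers EPCAM, KRT8 and KRT18 were expressed in every group, with group means of at least 73.7 CPM. Several moved with the groups. With sgPIKFYVE-1 CHGB (-0.67), ENO2 (-0.48) and SYP (-0.19) fell and KRT8 (0.19) rose. With Torin-1 INSM1 (0.84), KRT18 (0.34) and CHGB (0.32) rose and KRT8 (-0.30), ENO2 (-0.26) and SYP (-0.25) fell, and with apilimod INSM1 fell (-0.28) and KRT8 rose (0.18). The part of these shifts in the results below was not tested. Of the markers of other cell types, PTPRC was below the minimum of 1 CPM, while COL1A1 and PECAM1 had group means of at most 9.53 CPM, and COL1A1 fell with sgPIKFYVE-1 (-0.51, from 9.53 to 6.42 CPM). Fold changes below are on log2(CPM + 1), tested with limma and adjusted by the Benjamini-Hochberg method over all genes of a table, and "called" means an adjusted p under 0.05. Of the 50 factors, 19 overlap another listed gene, mostly on the opposite strand, and the strand setting of the counting is not given in the sources used here.

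Torin-1 was compared with DMSO to find which translation factor mRNAs move when mTOR is inhibited. Of the 50 factors, 18 rose and 21 fell, that is 78.0%, against 38.5% of all 13520 genes tested, of which 16.6% rose and 21.8% fell. Elongation factor eEF2, the helicase partner EIF4B, the eIF3 scaffold EIF3A and the scanning factors EIF1 and EIF1B rose by 1.58 to 1.92-fold. EIF5A, EIF4EBP1, EIF4G1, EIF2S1 and EEF1E1 fell to between 0.564 and 0.669 of DMSO. Well expressed genes were called more often, 48.1% of those averaging 20 CPM or more, and of the 48 factors at that level 38 were called, or 79.2%. Groups did not overlap for 20 factors that were higher and 25 that were lower, where 69.3% of all genes had groups apart. The 50 factors made up 2.44% and 2.45% of the CPM sum in the Torin-1 samples and 2.11% and 2.10% in the DMSO samples. EEF1A1 alone did not make this difference, since the sum without it was 16335 and 16612 CPM with Torin-1 and 14596 and 14492 CPM with DMSO. A sum is weighted to the most expressed factors, such as EEF2, with means of 2048 CPM with DMSO and 3231 CPM with Torin-1. The median log2 fold change of the 50 factors was -0.09, with 23 positive and 27 negative, so the set as a whole did not rise.

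**Figure D1:**
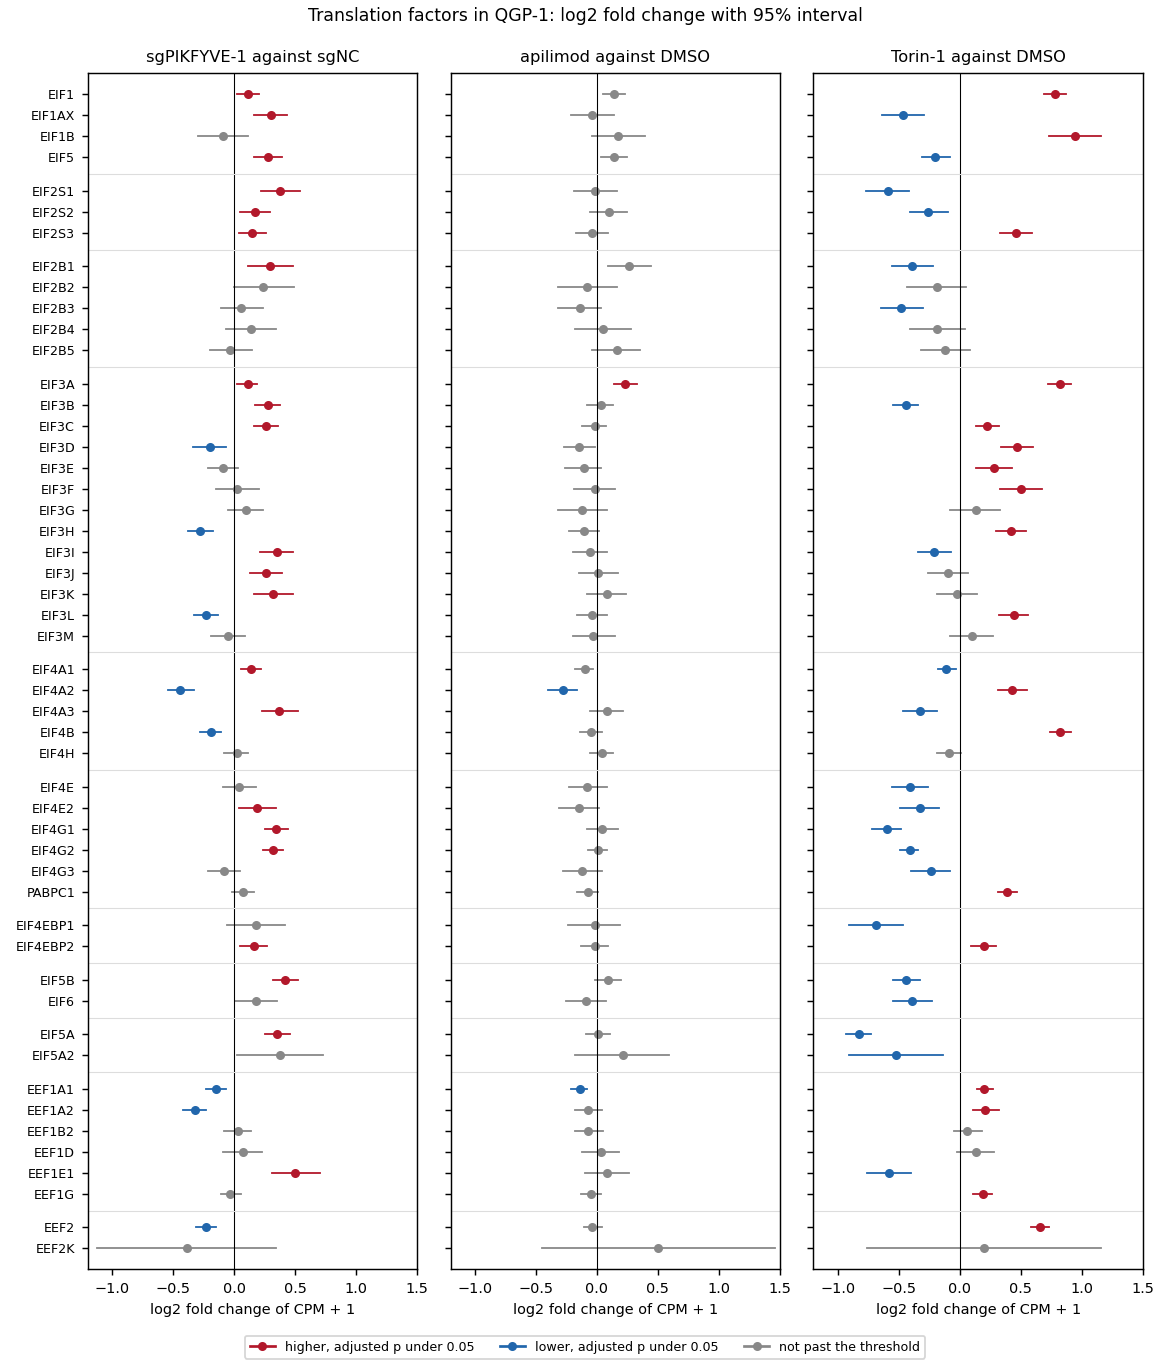
Log2 fold change of CPM + 1 (horizontal axis) of the 50 translation factors (rows, ordered by role, with grey lines between roles) in 3 comparisons, with lines for the 95% interval from limma and 2 samples in each group. Red and blue points passed an adjusted p of 0.05. The Torin-1 panel runs from EIF5A at -0.83 to EIF1B at 0.94, while in the apilimod panel only EIF3A, EIF4A2 and EEF1A1 are coloured.

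The scanning factors split under Torin-1. EIF1 keeps the small subunit scanning until the start codon is found, and it was at 462 and 456 CPM with DMSO and at 766 and 812 CPM with Torin-1. EIF1B, a close relative, was at 20.8 and 22.8 CPM with DMSO and at 40.8 and 44.9 CPM with Torin-1. Neither gene had overlapping groups, and the log2 fold changes were 0.78 for EIF1 (SE 0.0432, limma adjusted p = 1.24e-08) and 0.94 for EIF1B (SE 0.101, limma adjusted p = 7.76e-06). EIF1AX, which works with EIF1 in scanning, fell by 0.47, and EIF5, which triggers GTP hydrolysis on eIF2 at the start codon, fell by 0.20. The EIF5 call was lost without DMSO replicate 1 (adjusted p = 0.124) or Torin-1 replicate 1 (adjusted p = 0.0765).

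The 3 subunits of eIF2 did not move together. EIF2S1, the alpha subunit that the stress kinases phosphorylate, was at 65.7 and 72.8 CPM with DMSO and at 43.7 and 47.4 CPM with Torin-1, a log2 fold change of -0.59 (SE 0.0804, limma adjusted p = 6.46e-05). EIF2S2, the beta subunit, fell by 0.26, a call that was lost without DMSO replicate 2 (-0.24, adjusted p = 0.0792) or Torin-1 replicate 1 (-0.21, adjusted p = 0.0711). EIF2S3, the gamma subunit that binds GTP and the tRNA, rose from 174 and 185 CPM to 238 and 258 CPM, with a log2 fold change of 0.46. Of the 5 eIF2B subunits, EIF2B1 (-0.39) and EIF2B3 (-0.48) fell. The other 3 had log2 fold changes between -0.19 and -0.12 that did not pass the test.

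Of the 13 eIF3 subunits, 7 rose, 2 fell and 4 were not called under Torin-1. The 69.2% called stands beside 38.5% of all genes and 48.1% of those averaging 20 CPM or more. The subunit EIF3A, around which the complex is built, was at 465 and 453 CPM with DMSO and at 788 and 831 CPM with Torin-1 (log2 fold change 0.82, SE 0.0433, limma adjusted p = 7.84e-09). Its partner EIF3B was at 303 and 302 CPM with DMSO and at 225 and 220 CPM with Torin-1, a log2 fold change of -0.44. The subunits of one complex thus lay 1.26 log2 units apart. EIF3F rose by 0.50, EIF3D by 0.47, EIF3L by 0.44, EIF3H by 0.42, EIF3E by 0.28 and EIF3C by 0.22, and EIF3I fell by 0.21. The calls of EIF3E and EIF3I rested on single libraries. EIF3E was not called without DMSO replicate 2 (0.25, adjusted p = 0.0551) or Torin-1 replicate 2 (0.18, adjusted p = 0.0624). EIF3I was not called without DMSO replicate 1 (adjusted p = 0.0930), DMSO replicate 2 (adjusted p = 0.125) or Torin-1 replicate 2 (adjusted p = 0.0862). EIF3G, EIF3J, EIF3K and EIF3M lay between -0.10 and 0.13.

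**Figure D2:**
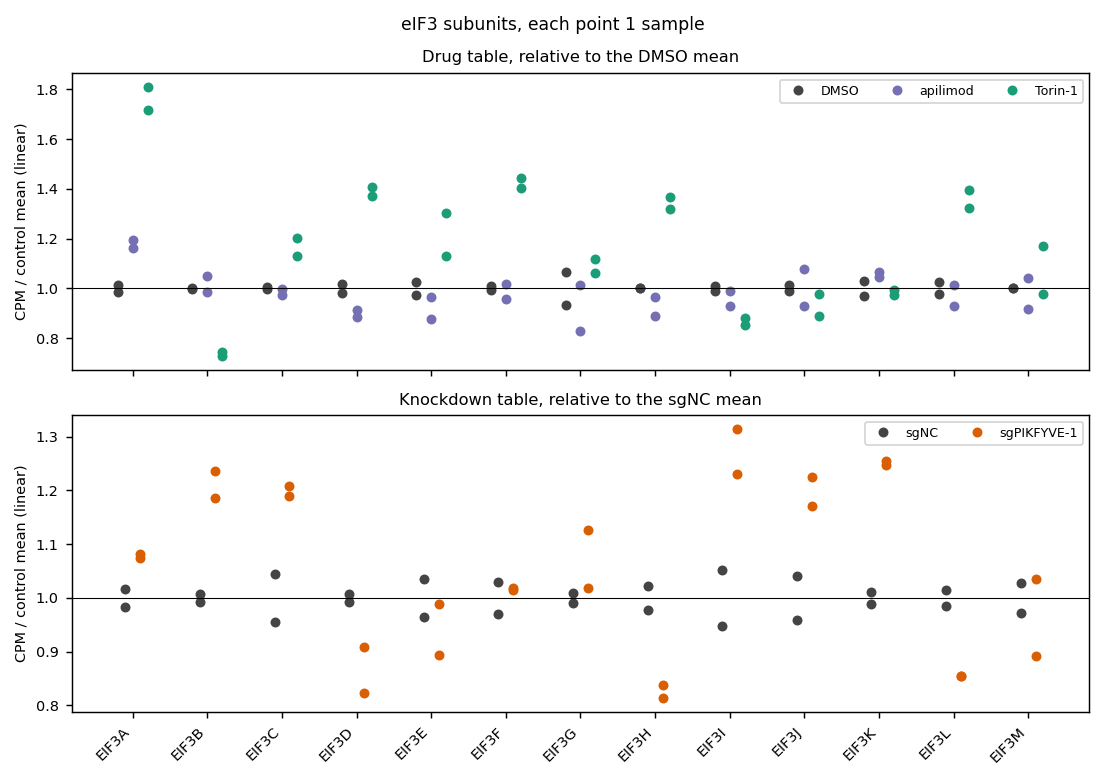
CPM of each eIF3 subunit in each sample divided by the mean of the 2 control samples of its table (vertical axis, linear), with 1 point for each sample. In the drug table both Torin-1 points of EIF3A stand above and both of EIF3B below the DMSO points, and in the knockdown table EIF3D, EIF3H and EIF3L lie below sgNC while EIF3B, EIF3C, EIF3I, EIF3J and EIF3K lie above it.

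The eIF4 helicases also split. EIF4A1 and EIF4A2 are RNA helicases that unwind the leader of the mRNA, and they share enough sequence that their reads may be split uncertainly, as may those of EEF1A1 and EEF1A2. EIF4A2 was at 333 and 342 CPM with DMSO and at 429 and 483 CPM with Torin-1 (log2 fold change 0.43, SE 0.0574, limma adjusted p = 5.81e-05). EIF4A1 was at 1227 and 1224 CPM with DMSO and at 1118 and 1159 CPM with Torin-1, and fell by 0.11, a call lost without DMSO replicate 1 (adjusted p = 0.174), DMSO replicate 2 (adjusted p = 0.158) or Torin-1 replicate 1 (adjusted p = 0.151). Levels were also taken per kilobase of the principal GENCODE transcript, the longest where several shared that rank. On this scale EIF4A1 was at 698 CPM and EIF4A2 at 176 CPM with DMSO, and at 648 and 238 CPM with Torin-1. EIF4A1 thus remained the higher of the pair. EIF4B, which stimulates the helicase and is a substrate of S6 kinase, was at 521 and 511 CPM with DMSO and at 894 and 934 CPM with Torin-1. Its log2 fold change was 0.82 (SE 0.0413, limma adjusted p = 4.33e-09). The related EIF4H was not called (-0.09), and EIF4A3, a helicase of the exon junction complex, fell by 0.33.

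The cap-binding proteins and scaffolds mostly fell under Torin-1, 5 of 6, and PABPC1 rose, where 21.8% of all genes fell and 16.6% rose. EIF4E, the cap-binding protein, was at 130 and 134 CPM with DMSO and at 92.5 and 106 CPM with Torin-1 (log2 fold change -0.41, SE 0.0715, limma adjusted p = 0.000495). EIF4G1, the main scaffold, was at 508 and 478 CPM with DMSO and at 338 and 313 CPM with Torin-1 (log2 fold change -0.60, SE 0.0565, limma adjusted p = 2.51e-06). The groups of neither gene overlapped. EIF4G2, a scaffold that lacks the eIF4E site, fell by 0.41, EIF4E2, a cap-binding protein that represses translation, by 0.33, and EIF4G3 by 0.24. The EIF4G3 call was lost without DMSO replicate 1 (adjusted p = 0.151), Torin-1 replicate 1 (adjusted p = 0.0525) or Torin-1 replicate 2 (adjusted p = 0.0561). PABPC1, the poly(A)-binding protein, was at 612 and 611 CPM with DMSO and at 794 and 812 CPM with Torin-1 (log2 fold change 0.39, SE 0.0391, limma adjusted p = 4.23e-06).

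The 2 measured 4E-BPs moved in opposite directions under Torin-1. EIF4EBP1 was at 30 and 30.7 CPM with DMSO and at 18.8 and 18 CPM with Torin-1 (log2 fold change -0.69, SE 0.102, limma adjusted p = 0.000134). EIF4EBP2 was at 209 and 212 CPM with DMSO and at 238 and 246 CPM with Torin-1 (log2 fold change 0.20, SE 0.0505, limma adjusted p = 0.00739). In both genes the groups did not overlap. The EIF4EBP2 call was lost without DMSO replicate 1 (0.19, adjusted p = 0.0729), whereas that of EIF4EBP1 held with each sample left out. EIF4EBP3 was not tested, being under a mean of 1 CPM.

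The late initiation factors EIF5B and EIF6 fell, as did EIF5A and EIF5A2. EIF5B, the GTPase that joins the subunits, fell by 0.44, and EIF6, which keeps the large subunit apart, by 0.39. EIF5A, the hypusine-modified factor that helps stalled ribosomes to form peptide bonds, was at 577 and 576 CPM with DMSO and at 328 and 321 CPM with Torin-1. Its log2 fold change of -0.83 (SE 0.0459, limma adjusted p = 1.24e-08) was the lowest of the 50 factors. EIF5A2, a relative of low level, was at 9.81 and 12.3 CPM with DMSO and at 7.19 and 7.52 CPM with Torin-1. It fell by 0.52, but the call was lost without DMSO replicate 2 (-0.37, adjusted p = 0.231), Torin-1 replicate 1 (-0.49, adjusted p = 0.109) or Torin-1 replicate 2 (-0.55, adjusted p = 0.0724).

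Of the 6 eEF1 genes 3 rose and 1 fell, and eEF2 rose. EEF2, the translocase, was at 2059 and 2036 CPM with DMSO and at 3272 and 3190 CPM with Torin-1 (log2 fold change 0.66, SE 0.0353, limma adjusted p = 9.07e-09). EEF1A1, which delivers aminoacyl-tRNA to the ribosome, was at 6622 and 6491 CPM with DMSO and at 7395 and 7683 CPM with Torin-1, a log2 fold change of 0.20 that was not called under quantile normalization (0.08, limma adjusted p = 0.111). EEF1A2, its relative in neurons and muscle, rose by 0.21, a call lost without DMSO replicate 2 (0.17, adjusted p = 0.0795), and the exchange factor subunit EEF1G rose by 0.19. The other exchange factor subunits, EEF1B2 (0.06) and EEF1D (0.13), were not called. EEF1E1, a subunit of the multi-tRNA synthetase complex, was at 54.1 and 56.9 CPM with DMSO and at 35.5 and 38.1 CPM with Torin-1 (log2 fold change -0.58, SE 0.0847, limma adjusted p = 0.000120).

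EEF2K, the kinase that inactivates eEF2, could not be resolved in any comparison. It was at 4.38 and 1.08 CPM with DMSO, at 1.46 and 5.02 CPM with Torin-1, and at 2.52 and 5.41 CPM with apilimod. The groups overlapped, and the 95% interval of the log2 fold change under Torin-1 ran from -0.76 to 1.16. With sgNC it was at 4.33 and 1.12 CPM and with sgPIKFYVE-1 at 1.61 and 1.51 CPM (log2 fold change -0.39, SE 0.349, limma adjusted p = 0.394). Without sgNC replicate 2 that value was -1.06 and called (adjusted p = 0.0113), so 1 library decided it.

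**Figure D3:**
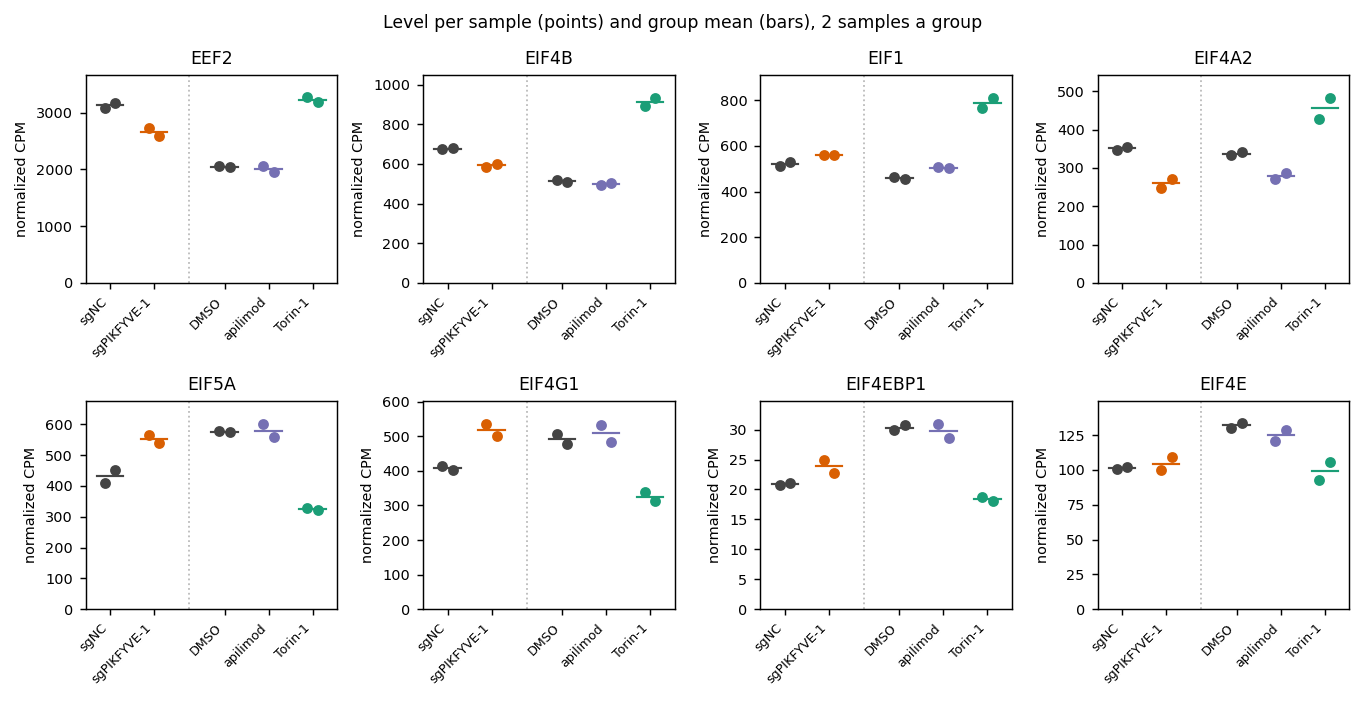
Normalized CPM (vertical axes from 0) of 8 translation factors in each of the 10 samples (points), with the group mean (bars) and a dotted line between the knockdown and the drug table, which were normalized separately. EEF2, EIF4B, EIF1 and EIF4A2 stand higher with Torin-1 than with DMSO, and EIF5A, EIF4G1, EIF4EBP1 and EIF4E lower.

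The knockdown of PIKFYVE was compared with sgNC to find which factors move when PIKFYVE is repressed. Of the 50 factors, 22 rose and 8 fell, that is 60.0%, against 42.5% of all 13591 genes tested, of which 21.6% rose and 20.9% fell. Of genes averaging 20 CPM or more 51.2% were called, and of the 48 factors at that level 30 were, or 62.5%. Groups did not overlap for 32 factors that were higher and 9 that were lower, where 70.6% of all genes had groups apart. The factors had a median log2 fold change of 0.12 and a range from -0.44 to 0.50, and the median absolute change of the factors was 0.19 against 0.24 over all genes. The sum over the factors was 22238 and 23104 CPM with sgNC and 22112 and 22220 CPM with sgPIKFYVE-1. EIF1, EIF2S2, EIF2S3, EIF3A, EIF4E2 and EIF4EBP2 were not called under quantile normalization or rescaling to equal sums, with log2 fold changes between 0.06 and 0.15, and without a variance trend in limma 10 of the 50 factors were called.

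Among initiation factors, all 3 eIF2 subunits rose with sgPIKFYVE-1. EIF2S1 was at 51.1 and 53.1 CPM with sgNC and at 65.4 and 70.8 CPM with sgPIKFYVE-1 (log2 fold change 0.38, SE 0.0764, limma adjusted p = 0.000513). EIF2S2 (0.17) was not called without sgNC replicate 1 (0.10, adjusted p = 0.321) or sgPIKFYVE-1 replicate 2 (0.13, adjusted p = 0.147). EIF2S3 (0.15) was not called without sgNC replicate 1 (0.11, adjusted p = 0.266) or sgPIKFYVE-1 replicate 2 (0.11, adjusted p = 0.180). Of eIF2B, only EIF2B1 was called (0.29), and not without sgNC replicate 2 (0.24, adjusted p = 0.108) or sgPIKFYVE-1 replicate 1 (0.25, adjusted p = 0.0651). Of the scanning factors EIF1AX rose by 0.30, EIF5 by 0.28 and EIF1 by 0.11, and EIF1 was not called when any 1 of the 4 samples was left out (adjusted p from 0.0564 to 0.303).

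In eIF3, 6 subunits rose and 3 fell with sgPIKFYVE-1, that is 69.2% of 13 genes. Of all genes 42.5% were called, and of those averaging 20 CPM or more 51.2%. EIF3I (0.35), EIF3K (0.32), EIF3B (0.28), EIF3C (0.26) and EIF3J (0.26) rose. EIF3A rose by 0.11 with an adjusted p of 0.0497 from limma, and was not called when any 1 of the 4 samples was left out (adjusted p from 0.0728 to 0.289). EIF3H was at 238 and 249 CPM with sgNC and at 198 and 204 CPM with sgPIKFYVE-1 (log2 fold change -0.28, SE 0.0505, limma adjusted p = 0.000193). EIF3L was at 265 and 273 CPM with sgNC and at 230 CPM in both knockdown samples (log2 fold change -0.23, SE 0.0482, limma adjusted p = 0.000827). EIF3D fell by 0.20, a call lost without sgNC replicate 2 (-0.19, adjusted p = 0.0714) or sgPIKFYVE-1 replicate 1 (-0.13, adjusted p = 0.130).

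The helicase EIF4A2 had the lowest log2 fold change of the factors with sgPIKFYVE-1. It was at 347 and 356 CPM with sgNC and at 248 and 272 CPM with sgPIKFYVE-1 (log2 fold change -0.44, SE 0.0510, limma adjusted p = 1.09e-06). EIF4A1 rose by 0.14 and EIF4B fell by 0.19, from 674 and 682 CPM to 587 and 599 CPM. EIF4A3 was at 65.7 and 67.6 CPM with sgNC and at 87 and 86.5 CPM with sgPIKFYVE-1 (log2 fold change 0.37, SE 0.0675, limma adjusted p = 0.000181). The scaffolds EIF4G1 (0.34) and EIF4G2 (0.32) rose. EIF4E2 rose by 0.19, a call lost without sgNC replicate 1 (adjusted p = 0.245) or sgPIKFYVE-1 replicate 2 (adjusted p = 0.193).

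The cap-binding protein EIF4E was at 101 and 102 CPM with sgNC and at 99.9 and 109 CPM with sgPIKFYVE-1 (log2 fold change 0.04, SE 0.0639, limma adjusted p = 0.633). The groups overlapped, and the 95% interval of the log2 fold change ran from -0.09 to 0.18. PABPC1 was at 604 and 637 CPM with sgNC and at 651 and 649 CPM with sgPIKFYVE-1 (log2 fold change 0.07, SE 0.0423, limma adjusted p = 0.210). EIF4EBP1 was at 20.8 and 21 CPM with sgNC and at 25 and 22.8 CPM with sgPIKFYVE-1, a log2 fold change of 0.18 (SE 0.115) that did not pass the test (limma adjusted p = 0.218). EIF4EBP2 was at 172 and 177 CPM with sgNC and at 193 and 198 CPM with sgPIKFYVE-1 (log2 fold change 0.16, SE 0.0519, limma adjusted p = 0.0187). This call was lost without sgNC replicate 1 (0.14, adjusted p = 0.140) or sgPIKFYVE-1 replicate 2 (0.14, adjusted p = 0.0742).

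Late initiation and elongation factors moved apart with sgPIKFYVE-1. EIF5B was at 247 and 258 CPM with sgNC and at 328 and 349 CPM with sgPIKFYVE-1 (log2 fold change 0.42, SE 0.0494, limma adjusted p = 1.26e-06). EIF5A was at 411 and 453 CPM with sgNC and at 564 and 540 CPM with sgPIKFYVE-1 (log2 fold change 0.35, SE 0.0488, limma adjusted p = 9.16e-06). EEF1E1, at 32.7 and 38.7 CPM with sgNC and 49.4 and 52.4 CPM with sgPIKFYVE-1, had the highest log2 fold change of the factors, 0.50 (SE 0.0938, limma adjusted p = 0.000245). All of these groups stood apart. EEF2 was at 3087 and 3166 CPM with sgNC and at 2726 and 2591 CPM with sgPIKFYVE-1 (log2 fold change -0.23, SE 0.0381, limma adjusted p = 6.12e-05). EEF1A2 was at 427 and 441 CPM with sgNC and at 350 and 343 CPM with sgPIKFYVE-1 (log2 fold change -0.32, SE 0.0446, limma adjusted p = 8.53e-06), and EEF1A1 fell by 0.15. EEF1B2 (0.03), EEF1D (0.07) and EEF1G (-0.03) were not called.

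Apilimod was compared with DMSO to find which factors move when the PIKfyve kinase is inhibited by a drug. Of the 50 factors, 1 rose and 2 fell, against 8.54% of all 13520 genes tested, of which 5.75% rose and 2.79% fell, so the share was not above the background. Of genes averaging 20 CPM or more 11.2% were called, and of the 48 factors at that level 3 were, or 6.25%. The groups did not overlap for 9 factors that were higher and 16 that were lower, where 50.7% of all genes had groups that did not overlap. At an unadjusted p under 0.05, 4 factors were higher and 4 lower. Quantile normalization gave 1 higher and 5 lower calls, among them EIF4A1 (-0.23, limma adjusted p = 0.000216). The sum over the factors was 20454 and 20202 CPM with apilimod and 21219 and 20982 CPM with DMSO.

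EIF3A was at 465 and 453 CPM with DMSO and at 533 and 548 CPM with apilimod, a log2 fold change of 0.23 (SE 0.0433, limma adjusted p = 0.00288). Its call was lost without DMSO replicate 2 (0.22, adjusted p = 0.0614). EIF4A2 was at 333 and 342 CPM with DMSO and at 270 and 286 CPM with apilimod (log2 fold change -0.28, SE 0.0574, limma adjusted p = 0.00613), and was not called without DMSO replicate 2 (-0.26, adjusted p = 0.0745) or apilimod replicate 1 (-0.24, adjusted p = 0.0699). EEF1A1 was at 6622 and 6491 CPM with DMSO and at 5973 and 5899 CPM with apilimod (log2 fold change -0.14, SE 0.0301, limma adjusted p = 0.00735), and was not called when any 1 of these 4 samples was left out (adjusted p from 0.0519 to 0.147). For each of the 3, the 2 apilimod samples lay on one side of both DMSO samples. Without DMSO replicate 2 limma called none of the 50 factors (3 at an unadjusted p under 0.05), and without apilimod replicate 1 it called only EIF3A. Without either Torin-1 replicate 1 or Torin-1 replicate 2 it called 5, adding EIF1 (0.14, adjusted p = 0.0392 and 0.0389) and EIF2B1 (0.26, adjusted p = 0.0498 and 0.0490).

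None of the 6 cap-binding proteins and scaffolds and neither 4E-BP was called with apilimod. Of those 6, 3 had both samples below DMSO and none had both above, where 50.7% of all genes had groups apart in either direction. EIF4E was at 121 and 129 CPM with apilimod (log2 fold change -0.08, SE 0.0715, limma adjusted p = 0.612), with a 95% interval from -0.23 to 0.08, and both samples lay below the 130 and 134 CPM of DMSO. EIF4EBP1 was at 31 and 28.6 CPM (log2 fold change -0.02, SE 0.102, limma adjusted p = 0.932), with an interval from -0.24 to 0.19. EIF4EBP2 was at 211 and 205 CPM (log2 fold change -0.02, SE 0.0505, limma adjusted p = 0.889), with an interval from -0.13 to 0.09. The samples of both 4E-BPs overlapped with DMSO. PABPC1 was at 579 and 585 CPM (log2 fold change -0.07, SE 0.0391, limma adjusted p = 0.318), below the 612 and 611 CPM of DMSO. EEF2 was at 2052 and 1946 CPM (log2 fold change -0.04, SE 0.0353, limma adjusted p = 0.641), and EEF2K, with an interval from -0.45 to 1.46, was left unresolved.

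Torin-1 and apilimod share their DMSO samples, so their values are given side by side. EIF3A was higher with both drugs, by 0.23 with apilimod and 0.82 with Torin-1. EIF4A2 was lower with apilimod (-0.28) and higher with Torin-1 (0.43), and EEF1A1 was lower with apilimod (-0.14) and higher with Torin-1 (0.20). Tested against each other, 19 factors were higher and 19 lower with Torin-1 than with apilimod, 76.0% of the 50 against 46.7% of all genes, of which 20.5% were higher and 26.2% lower. EEF2 differed by 0.69 (SE 0.0353, limma adjusted p = 2.19e-09) and EIF5A by -0.84, and EIF4EBP1 was lower and EIF4EBP2 higher with Torin-1.

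The knockdown and Torin-1 have separate controls and tables. Of the 50 factors, 28 were called in both comparisons, 23 of them in opposite directions. The opposite calls were 15 that rose with sgPIKFYVE-1 and fell with Torin-1 and 8 that fell with sgPIKFYVE-1 and rose with Torin-1. A further 5 rose in both and none fell in both. The 8 that fell with sgPIKFYVE-1 and rose with Torin-1 were EIF4A2, EEF1A2, EIF3H, EEF2, EIF3L, EIF3D, EIF4B and EEF1A1. The 5 that rose in both were EIF1, EIF2S3, EIF3A, EIF3C and EIF4EBP2. An opposite direction was also the rule over all genes, with 2278 of 2802 genes called in both, or 81.3%, against 82.1% of the factors, so the share was not particular to translation factors. Across genes, Pearson's r between the log2 fold changes was -0.67 and Spearman's rho -0.72 over the 50 factors, and -0.33 and -0.37 over 13235 genes. Of the factors 48 averaged 20 CPM or more, while the 13235 genes reach down to a mean of 1 CPM. No correlation over genes of like level was computed. Genes of one library share its depth and are not independent replicates.

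**Figure D4:**
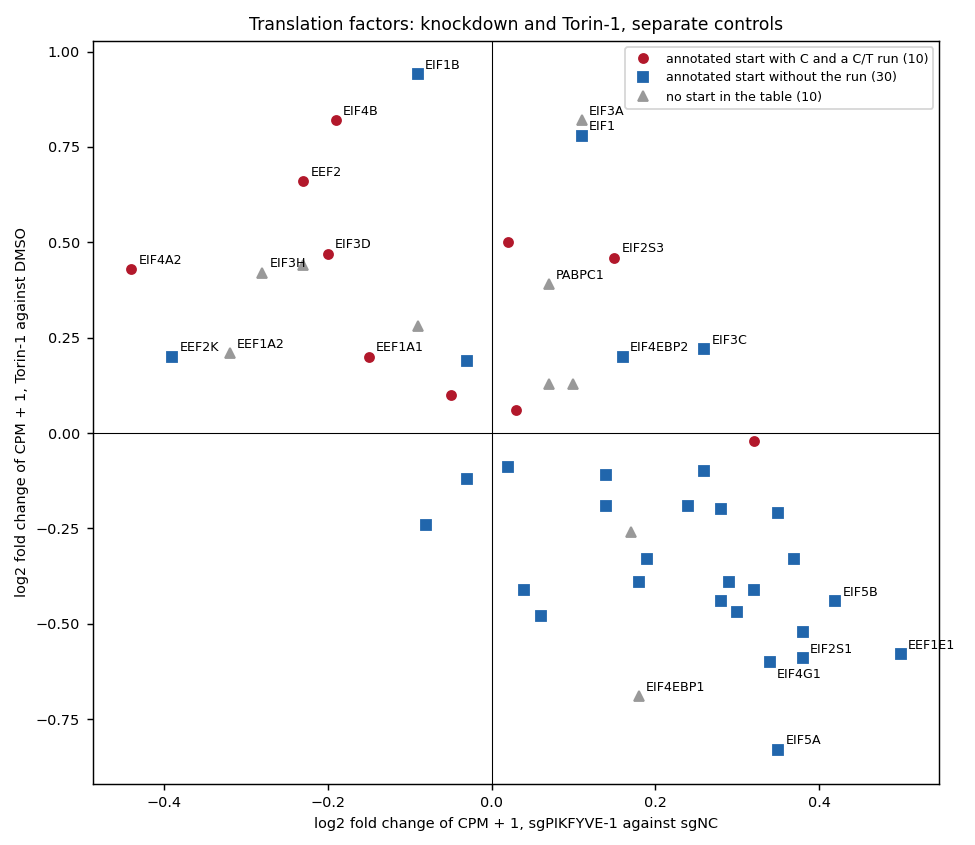
Log2 fold change of CPM + 1 with sgPIKFYVE-1 against sgNC (horizontal axis) and with Torin-1 against DMSO (vertical axis) for the 50 factors (points), with separate controls for each axis. Red circles mark the 10 factors with a C and C/T run at an annotated start, blue squares the 30 without it and grey triangles the 10 with no start in the table. Of the circles 7 were called higher with Torin-1, and of the squares 19 were called lower.

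The factors were then counted by the starts shown above, with no test of the division. Of the 10 factors with the run, 7 rose and none fell under Torin-1, and 3 were not called. Of the 30 factors with a listed start but no run, 5 rose and 19 fell. Over all genes tested, 27.1% of 752 with the run rose and 17.7% fell, and 15.8% of 9451 without it rose and 23.9% fell. With sgPIKFYVE-1, 2 of the 10 rose and 5 fell, whereas 18 of the 30 rose and none fell. Over all genes, the difference with sgPIKFYVE-1 was slight, 20% higher and 22.2% lower with the run against 23.1% and 20.1% without it. With apilimod, 2 of the 10 fell and none rose, and none of the 30 was called. Over all genes with apilimod, 4.79% rose and 2.13% fell with the run, and 5.98% and 2.87% without it. EIF1 and EIF1B, which rose most under Torin-1 along with EIF4B and EIF3A, are among the factors without the run, so the letters at the start did not divide the factors fully.

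A list of 10 factors commonly described as TOP mRNAs, EEF1A1, EEF1B2, EEF1D, EEF1G, EEF2, EIF3E, EIF3F, EIF3H, EIF4B and PABPC1, had been drawn up from general knowledge with earlier results of these data in view. Of these, EEF1G has a listed start without the run, and EEF1D, EIF3E, EIF3H and PABPC1 were not matched to a start. Under Torin-1, 8 of the 10 rose and none fell, where 16.6% of all genes rose. All 10 had groups that did not overlap, where 69.3% of all genes did, with a median log2 fold change of 0.34 against -0.01 over all genes. With sgPIKFYVE-1 4 of the 10 fell and none rose, where 20.9% of all genes fell and 21.6% rose. In either direction 40.0% of the 10 were called, against 42.5% of all genes. With apilimod 1 of the 10 fell and none rose, where 2.79% of all genes fell and 5.75% rose. For 7 of the 10 both apilimod samples lay below both DMSO samples, where 50.7% of all genes had groups apart in either direction.

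Regulators of these factors were counted from a second list of 34 genes, of which 32 were tested. Under Torin-1 5 rose and 10 fell, that is 46.9% against 38.5% of all genes. Most of the 32 averaged 20 CPM or more, a level at which 48.1% of genes were called, so the share was near that background. The regulators under 20 CPM were not taken out of the 46.9%. PPP1R15A, the stress-induced subunit of the phosphatase of eIF2, rose by 0.83, the eIF2 kinase EIF2AK3 (PERK) by 0.60 and EIF2A by 0.41. MKNK2, a kinase of eIF4E, fell by 0.65, the recycling factor ABCE1 by 0.49 and PPP1R15B, the constitutive phosphatase subunit, by 0.40. With sgPIKFYVE-1 11 rose and 4 fell, also 46.9%, which was near the 42.5% of all genes and the 51.2% of genes averaging 20 CPM or more. The largest rises were in LARP1, which binds TOP mRNAs (0.46), PAIP2B, an inhibitor of the poly(A)-binding protein (0.31), and the release factor ETF1 (0.30). The lowest were DPH7 (-0.43), which acts in the diphthamide modification of eEF2, DHPS (-0.35), which starts the hypusine modification of eIF5A, and MKNK2 (-0.25). With apilimod LARP1 rose by 0.17 and DPH5, another diphthamide enzyme, fell by 0.39, that is 6.25% called against 8.54% of all genes.

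The counts by role, for the factors above as for these regulators, are of few genes. They stand beside shares over all genes of 38.5% under Torin-1, 42.5% with sgPIKFYVE-1 and 8.54% with apilimod. The 4 eIF2 kinases gave 1 higher and 1 lower call under Torin-1, 1 higher with sgPIKFYVE-1 and none with apilimod. The 2 phosphatase subunits gave 1 higher and 1 lower call under Torin-1, 1 higher with sgPIKFYVE-1 and none with apilimod. Among the 12 tested eIF4F regulators, 2 rose and 3 fell under Torin-1, 4 rose and 2 fell with sgPIKFYVE-1 and 1 rose with apilimod. Among the 7 tested genes listed under termination and recycling, 1 rose and 4 fell under Torin-1, 4 rose with sgPIKFYVE-1 and none was called with apilimod. The 1 that rose under Torin-1 was EIF2A, which by name is an initiation factor, and the 4 that fell were ETF1, GSPT1, ABCE1 and DENR. Of the 7 hypusine and diphthamide enzymes, 1 fell under Torin-1, 1 rose and 2 fell with sgPIKFYVE-1 and 1 fell with apilimod.

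The paralogs differed in level. Per kilobase of the principal GENCODE transcript, chosen as above, the level of EEF1A1 was 1476 CPM and that of EEF1A2 185 CPM with DMSO. With Torin-1 these levels were 1698 and 214 CPM. EIF5A was at 381 CPM per kilobase and EIF5A2 at 1.98 CPM per kilobase with DMSO, and at 215 and 1.31 CPM per kilobase with Torin-1. With sgNC the level of EIF4A1 was 509 CPM and that of EIF4A2 183 CPM per kilobase, and with sgPIKFYVE-1 561 and 135 CPM. EIF4A1, EEF1A1 and EIF5A were the higher of their pairs in all 5 groups.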

How the data were processed

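The factors and gene lists were chosen with earlier results of these data known. The authors extracted RNA, sequenced the libraries and trimmed reads with Trimmomatic, and scaled by TMM in edgeR. The build was hg38 per the labels. The labels describe rRNA depletion, the methods oligo(dT) selection. The quantifier is not given in the sources used here. The deposited values are a signal on the CPM scale, 1 table for the knockdown and 1 for the drugs, with column sums between 972493 and 1024332. Of values under 20 reads, only 73.6% to 76.8% lay within 0.05 reads of a whole number, so no count model was fitted. The design assumed plain CPM, and the same test was kept.

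Genes averaging 1 CPM or more were tested on log2(CPM + 1), which understates changes of low genes, with limma 3.58.1 in R 4.3.3 (trend, Benjamini-Hochberg adjustment, threshold 0.05), 4 samples in the knockdown fit and 6 in the drug fit. The procedure was tested on simulated data. Replicates differed by 2.29 to 3.53 times the Poisson expectation, so none was a duplicate. By rule, full statistics went to both 4E-BPs, EIF4E, EEF2, EEF2K, PABPC1 and, among called factors, the 5 highest and 5 lowest by log2 fold change. Other members named have their fold change. Alternatives were a pseudocount of 0.1, no filter, quantile normalization, rescaling, no variance trend, a replicate block, fitting just the groups compared, near-identical copies summed, and each sample left out. The background at 20 CPM and the start-site run were added after seeing the data. Figures used matplotlib 3.10.9.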

Additional observations from a re-analysis of the deposited data

How the results depend on the processing

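Of the 30 factors called in the knockdown, 22 kept their call in every run that left out 1 sample and 10 under every alternative. Of the 39 called under Torin-1 against DMSO, 30 and 27 did, and of the 3 called with apilimod, none did. With each sample left out, 25 to 28 factors were called in the knockdown, 0 to 5 with apilimod, 33 to 39 with Torin-1 against DMSO and 35 to 38 between the drugs. Without a variance trend, limma called 10 factors in the knockdown and 0 with apilimod (3 at an unadjusted p under 0.05). With apilimod, no filter on low values gave 1 call, quantile normalization 6 (1 higher and 5 lower, against 1 and 2) and a fit of only the compared groups 5. The cause of these shifts was not tested. Under quantile normalization 2 values turned: EIF4G2 with apilimod against DMSO became -0.11 (limma adjusted p = 0.0478) and EIF4A1 between Torin-1 and apilimod became 0.09 (limma adjusted p = 0.0180). EEF2K, at 1.08 to 5.41 CPM, differed widely between replicates, and the cause was not tested.

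The main fits did not pair the samples by replicate number, and whether same-numbered samples share a batch was not tested. The deviations of same-numbered samples correlated at 0.00 between sgNC and sgPIKFYVE-1, at 0.08 between DMSO and each drug and at 0.26 between the drugs. With the replicate block 30 factors were called in the knockdown, 6 with apilimod (3 higher and 3 lower), 39 with Torin-1 against DMSO and 41 between the drugs. In the main fits the counts were 30, 3, 39 and 38.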
